A study of Mus musculus with 6 samples.

Results

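The genes of the proteasome were examined in mouse liver that lacks the splicing factor SRSF3 in hepatocytes. All genes were taken whose single annotated symbol begins with Psma, Psmb, Psmc, Psmd, Psme, Psmf or Psmg and a digit. This gave 46 of 16277 genes and 530 of the 229581 probe sets on the arrays. They comprise 14 constitutive subunits of the 20S core, 4 inducible or tissue-restricted beta subunits, 16 subunits of the 19S cap, 6 assembly chaperones, 4 genes of activators, 1 inhibitor gene and Psmc3ip. Psmc3ip meets the symbol rule but codes for a recombination cofactor and not for a proteasome protein.

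The study compared 3 arrays of liver from hepatocyte-specific Srsf3 knockout mice (SRSF3HKO) with 3 arrays of wild-type liver (WT), called littermates in the series title and age-matched in the labels. All mice were untreated and 1 month old, and total RNA of whole liver was hybridised to Affymetrix exon arrays, on which each gene is read by several probe sets. The deletion is placed in hepatocytes, so by design it spares the other liver cells; the Cre driver and the deleted part of Srsf3 are not named in the labels. The knockout arrays come from 3 mice, but the labels leave unsaid how many WT mice were used, and p-values here reflect the spread among these arrays, which may be technical. In RNA of whole liver, fewer cells of a type and less RNA per cell cannot be told apart.

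The proteasome degrades proteins that carry ubiquitin chains. Its 20S core is a barrel of alpha rings, which gate entry, and beta rings, which hold the proteolytic sites, and the 19S cap binds, unfolds and feeds substrates into it. Interferon induces a different set of catalytic beta subunits, which form the immunoproteasome, and the PA28 activator, both of which serve the production of peptides for MHC class I; constitutive subunit genes are known to be raised together by the transcription factor NRF1, the product of Nfe2l1, when proteasome capacity is short.

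Median probe set intensity lay between 75.3 and 89.6 on the 6 arrays, and the number of arrays limits the precision. Across the 11711 tested genes, Pearson's r between WT arrays was 0.973 to 0.981 and between SRSF3HKO arrays 0.904 to 0.949, as a description across genes. SRSF3HKO replicate 2 was the array least like its group (r of 0.904 and 0.927), so results that rest on it are given without it as well. The gene-level value of Srsf3 was 9.79, 9.24 and 9.35 in WT and 10.30, 9.10 and 9.78 in SRSF3HKO, with probe sets from 1.03 lower to 1.68 higher on the log2 scale, and since the deleted part is not named, this value does not check the labels. The hepatocyte marker list had a summed level of 15.75 to 15.76 in WT and 15.57 to 15.78 in SRSF3HKO. By limma, 0 of its 6 tested genes were called (0 also at an unadjusted p under 0.05). Of its changes 5 were negative and 1 was positive, with a median of -0.17. For Apoa1, Serpina1a and Ttr every SRSF3HKO array lay below every WT array, as it did for 14% of all tested genes. Y-linked signal was present on WT replicates 1 and 2 and on SRSF3HKO replicate 3, so it stood in both groups.

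Most proteasome genes had higher values in SRSF3HKO liver, whereas the immunoproteasome subunits and the activator genes Psme1 and Psme4 had lower means, none of them called. The lower immunoproteasome means rested mostly on SRSF3HKO replicate 2. Without it Psmb8, Psmb9 and Psmb10 changed by -0.31, 0.03 and -0.09. Levels are log2(intensity + 16), taken as the median over the probe sets of a gene, and a change is SRSF3HKO minus WT with its SE. Of the 46 genes, 45 had a mean above the detection floor of 5.35, and all 45 had both group means above it. By limma, at an adjusted p under 0.05 over all tested genes, 7 rose: Psmd8, Psma6, Psma7, Psmd9, Psmd5, Psmb6 and Psmb4. That is 15.6% of the 45, while 6.85% of all tested genes were called higher. None was called lower by limma, where 5.03% of all tested genes were; at an unadjusted p under 0.05, 1 gene was lower (Psme1) and 24 were higher, 53.3% of the 45 beside 17.6% of all tested genes higher and 11.4% lower.

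The median change over the 45 genes was 0.49, and over all 11711 tested genes it was 0.08. The change was positive for 38 of the 45 (84.4%), against 57.4% of all tested genes. In 24 genes (53.3%) every SRSF3HKO array lay above every WT array, against 21.6% of all tested genes. In 2 genes (4.44%), Psmb8 and Psme1, every SRSF3HKO array lay below every WT array, against 14% of all tested genes. Genes of 1 complex are not independent of one another, and these counts describe the list.

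**Figure D1:**
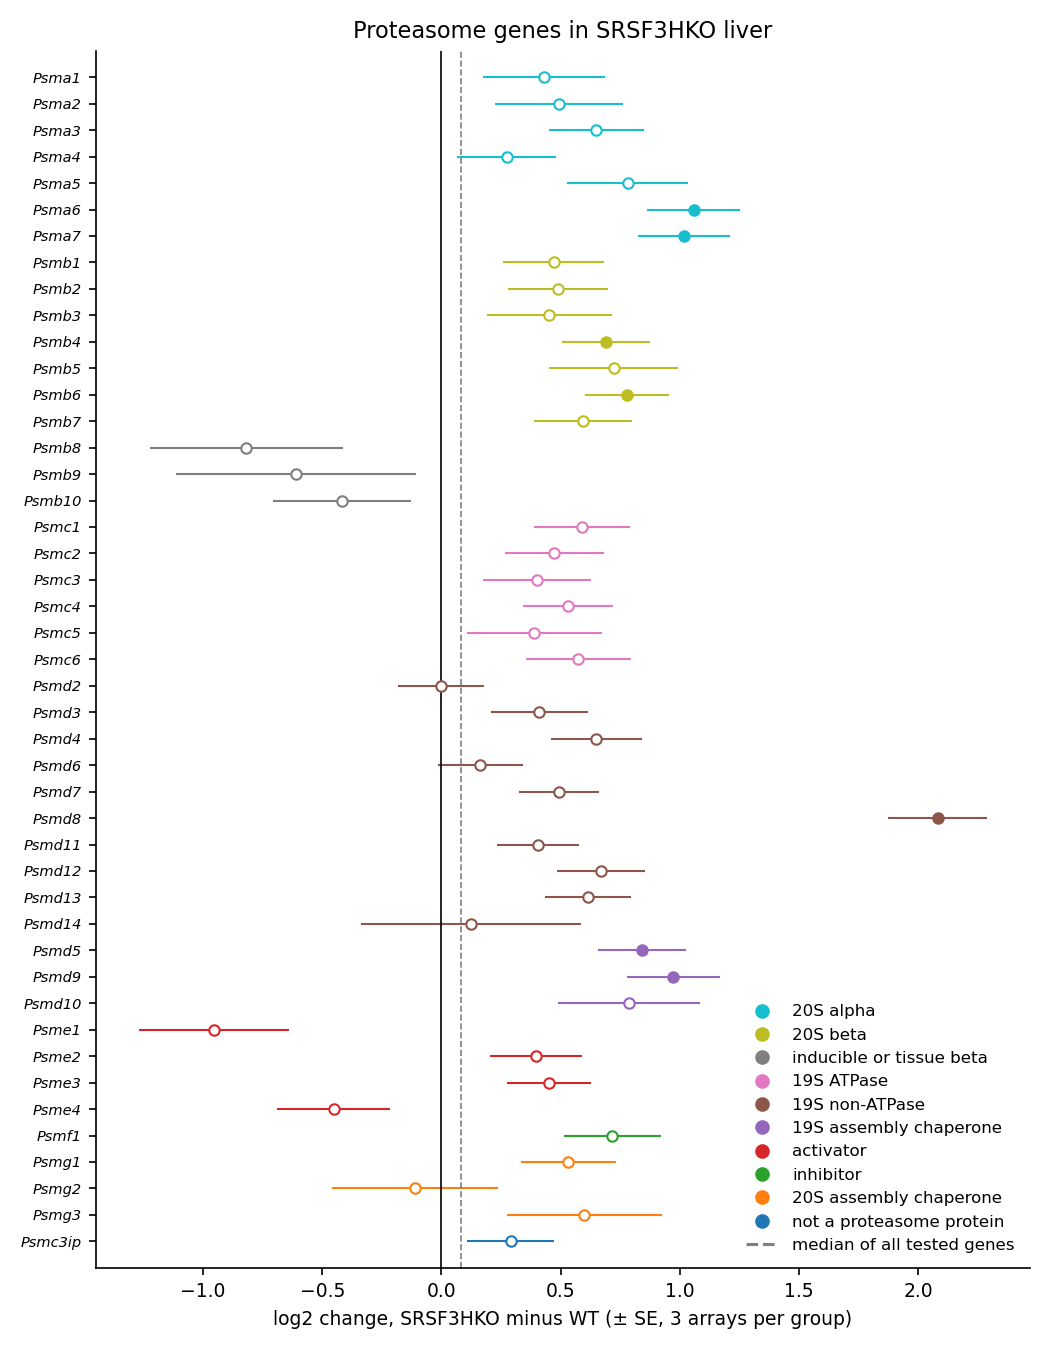
Change of each of the 45 tested proteasome genes, SRSF3HKO minus WT in log2 units, with its SE as a bar and 3 arrays per group; colours give the role, filled points are genes called at a limma adjusted p under 0.05, and the dashed line is the median of all tested genes at 0.08. The constitutive 20S and 19S genes sit right of 0 apart from Psmd2 at 0, Psmd8 stands alone at 2.08, and Psme1, Psmb8, Psmb9, Psme4, Psmb10 and Psmg2 sit left of 0.

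**Figure D2:**
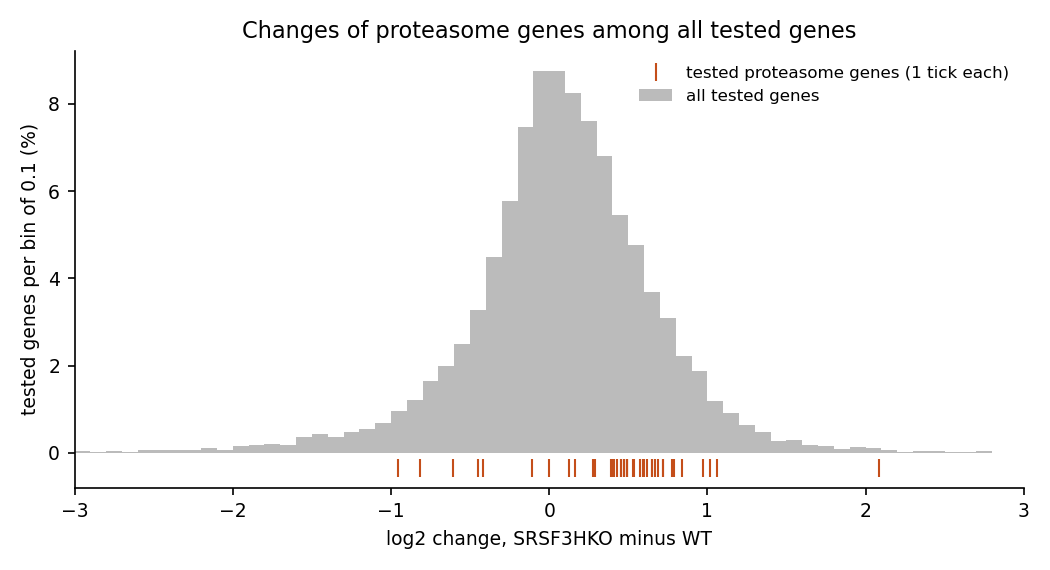
Histogram of the log2 change of all 11711 tested genes in bins of 0.1 (percent of genes per bin), with 1 tick below it for each tested proteasome gene. The ticks gather between 0.27 and 0.84, right of the median of all genes at 0.08, while 10% of all tested genes lie above 0.76.

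The size of the shift differed between the knockout arrays. The median difference of the 45 genes from the WT mean was 0.63 in SRSF3HKO replicate 1, 0.25 in replicate 2 and 0.71 in replicate 3, whereas over all tested genes it was 0.11, 0.07 and 0.04. Replicate 2 was the lowest SRSF3HKO array for 35 of the 45 genes, against 39.1% of all tested genes. Without replicate 2 the median change was 0.66 and 26 of the 45 genes rose, with 11.9% of all tested genes called higher. Without any 1 of the WT arrays, 1 of the 45 remained called, Psmd8, with 0.931%, 0.888% and 1.87% of all tested genes called higher without WT replicate 1, 2 and 3. Without SRSF3HKO replicate 1 or 3, 4 were called, beside 5% and 4.69% of all tested genes. A fit that included Y-linked signal called 3, beside 2.69% of all tested genes, at a median change of 0.55.

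Promoter windows of 300 bases, 250 before the annotated start and 50 after it, were available from RefSeq on GRCm38.p6 for 39 of the 46 genes, and 4 are printed: that of the gene with the highest rise, those of the other called genes with a match to the first motif below, and that of Psme1. They run 5′ to 3′ on the strand of the gene, and capitals mark a match to the core of the antioxidant response element (TGACNNNGC), which NRF1 and NRF2 are known to bind, or of the interferon-stimulated response element (GAAA repeated with 2 free bases between), searched on both strands. Psmd8 (chr7:29180624-29180923, minus strand), a 19S subunit and the gene with the highest rise, holds neither. Psmd9 (chr5:123227940-123228239, plus strand), a 19S chaperone, holds both, Psmb6 (chr11:70525107-70525406, plus strand), a catalytic subunit, holds the first, and Psme1 (chr14:55578244-55578543, plus strand), of the PA28 activator, holds the second.
Psmd8: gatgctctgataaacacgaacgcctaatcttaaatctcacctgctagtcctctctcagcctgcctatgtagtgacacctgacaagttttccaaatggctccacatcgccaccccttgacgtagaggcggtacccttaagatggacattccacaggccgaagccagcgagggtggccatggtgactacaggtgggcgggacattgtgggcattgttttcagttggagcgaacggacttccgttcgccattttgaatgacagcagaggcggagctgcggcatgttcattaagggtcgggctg
Psmd9: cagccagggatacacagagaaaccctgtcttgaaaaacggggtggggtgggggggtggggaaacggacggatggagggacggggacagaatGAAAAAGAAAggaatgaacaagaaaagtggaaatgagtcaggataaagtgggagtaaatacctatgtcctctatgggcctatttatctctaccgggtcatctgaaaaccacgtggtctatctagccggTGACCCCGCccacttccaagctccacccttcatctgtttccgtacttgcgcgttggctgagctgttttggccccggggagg
Psmb6: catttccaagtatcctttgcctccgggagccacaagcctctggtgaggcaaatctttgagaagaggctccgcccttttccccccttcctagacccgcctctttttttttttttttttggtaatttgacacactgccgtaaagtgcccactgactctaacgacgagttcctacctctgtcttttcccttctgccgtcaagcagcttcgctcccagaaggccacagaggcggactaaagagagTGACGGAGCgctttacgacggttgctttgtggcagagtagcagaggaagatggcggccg
Psme1: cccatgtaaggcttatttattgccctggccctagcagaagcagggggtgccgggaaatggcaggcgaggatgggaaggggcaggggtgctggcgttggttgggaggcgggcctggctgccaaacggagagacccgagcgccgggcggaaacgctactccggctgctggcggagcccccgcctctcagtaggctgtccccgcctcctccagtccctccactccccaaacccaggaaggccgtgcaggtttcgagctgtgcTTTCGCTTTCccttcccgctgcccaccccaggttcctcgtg

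The antioxidant response core stood in 6 of the 39 windows (15.4%; Psmb5, Psmb6, Psmc6, Psmd12, Psmd9 and Psme4) and in 12.5% of all 27025 windows of the same length. The interferon-stimulated core stood in 4 of the 39 (10.3%; Psmb3, Psmd4, Psmd9 and Psme1) and in 3.49% of all windows. Among the 7 called genes, 2 held the first core and 1 the second. The windows of Psma6, Psma7, Psmb8 and Psmb9, which were looked at first, held neither, and the windows printed were chosen after the matches had been seen. A core of nuclear respiratory factor 1 (GCGCA and GCGC with 1 free base between), a factor other than the NRF1 named above, stood in 7 of the 39 (17.9%; Psma2, Psma3, Psma4, Psmc4, Psmc5, Psmd14 and Psmg1), none of them called, and in 4.78% of all windows. The CCAAT box (CCAAT) stood in 15 of the 39 (38.5%) and in 37.9% of all windows. Matches of different motifs did not overlap in these windows, and a match describes letters only.

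Psmd8, a non-ATPase subunit of the 19S lid, had the highest change of the 45 genes. Its level was 9.34, 9.78 and 9.37 in WT and 11.34, 11.59 and 11.80 in SRSF3HKO. The lowest knockout array lay 1.56 above the highest WT array. The change was 2.08 ± 0.21, a 4.24-fold rise (limma adjusted p = 0.00162), and it was called under all 16 alternatives, at changes of 1.63 to 2.23 (limma adjusted p from 0.000335 to 0.0196).

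The probe sets of Psmd8 did not all rise. Of its 11 probe sets, 10 rose, by 1.46 to 2.24. Probe set 5238523 had the largest rise, from 9.34, 9.78 and 9.37 in WT to 11.72, 11.59 and 11.90 in SRSF3HKO (change 2.24 ± 0.20, limma adjusted p = 0.000891). Probe set 4563073 was 8.52, 8.75 and 8.99 in WT and 8.59, 8.85 and 8.90 in SRSF3HKO (change 0.03 ± 0.22, limma adjusted p = 0.955), so its groups overlapped while those of the other 10 did not.

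**Figure D3:**
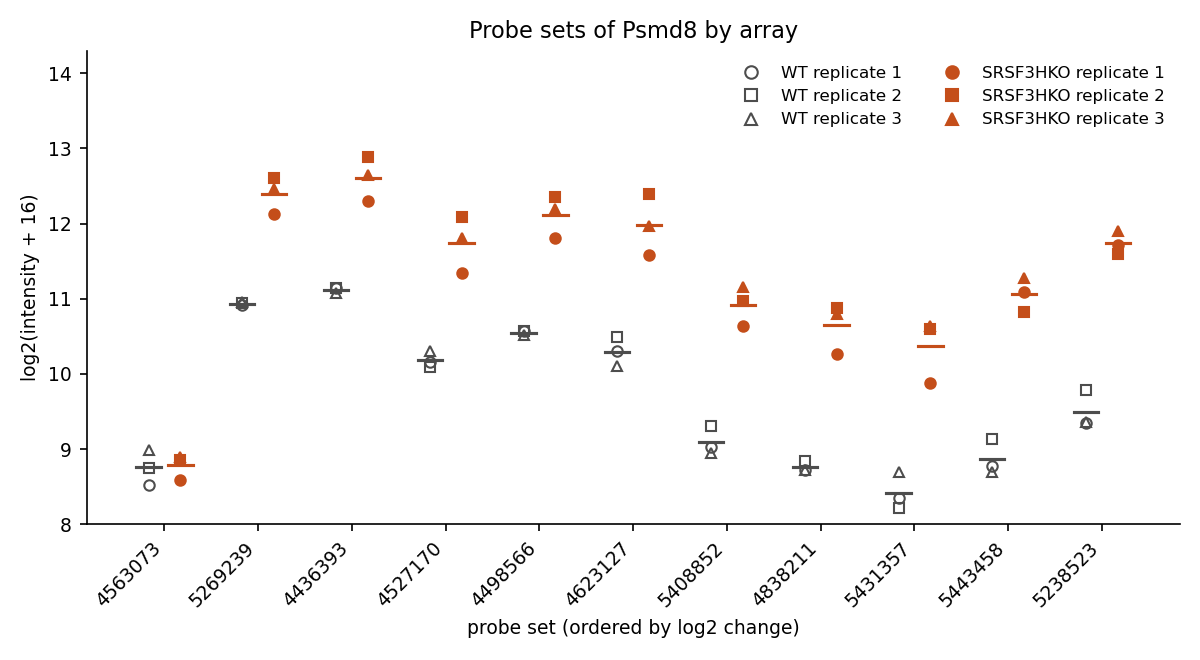
Level of each of the 11 Psmd8 probe sets on each array as log2(intensity + 16), WT in open grey and SRSF3HKO in filled orange symbols, with bars for the group means and probe sets ordered by change. In probe set 4563073 the 6 arrays overlap between 8.52 and 8.99, and in the other 10 every SRSF3HKO array lies above every WT array.

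Exon usage compares the change of a probe set with that of the rest of its gene, and Psmd8 was the only proteasome gene called by limma's diffSplice. The test covered 508 probe sets of 44 of the genes, and 1 probe set was called, against 0.662% of 142800 probe sets and 6.12% of 12252 genes with a called probe set overall. The usage of Psmd8 probe set 4563073 was lower by 1.76 log2 units in SRSF3HKO (change -1.76, diffSplice adjusted p = 1.26e-06). The probe set itself changed by 0.03, so this value comes from the rise of the other probe sets of the gene. Whether this probe set responds to the level of its transcript was not tested. The usage change was called under all 16 alternatives of the processing (diffSplice adjusted p from 4.18e-08 to 0.000733). The mean over probe sets, bright probe sets only and eBayes without trend do not enter this test, so these alternatives could not change its call. diffSplice pools the spread over the probe sets of a gene and over-called on simulated probe sets of unequal spread, so per-array indices were tested with limma as well. They were chosen after the data had been seen and did not give the same call. The index against the gene median gave -2.06 ± 0.22 (limma adjusted p = 0.0727, with 0.0105% of all probe sets called), and that against the mean of the other probe sets, made after the first had been run, gave -1.76 ± 0.22 (limma adjusted p = 0.0431, with 0.141% called). The position of the probe set in the gene was not analysed here. Psma3 probe set 5370051, chosen after its values were seen, was 9.55, 9.29 and 9.29 in WT and 10.05, 9.99 and 5.80 in SRSF3HKO, so it was dim on replicate 3 alone (diffSplice adjusted p = 0.0996).

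Over single probe sets, 62 of the 510 tested rose (12.2%), where 4.73% of all tested probe sets were called higher. Psmd8 gave 10 of the 62, and the 62 came from 17 genes. The change was positive in 392 of the 510. None was called lower by limma, where 4.32% of all probe sets were. At an unadjusted p under 0.05, 27 were lower. Of these, 26 were among the 82 probe sets of the activators, where 8 were higher, and 1 was among the 22 of the inducible beta subunits. The shares of all tested probe sets at that threshold, or with a positive change, were not counted here. The count of 62 became 193 without SRSF3HKO replicate 2, between 10 and 12 without 1 of the WT arrays, 31 and 20 without SRSF3HKO replicates 1 and 3, and 33 with eBayes without trend.

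The alpha subunits form the outer rings of the 20S core and its gate. Of 7, Psma6 and Psma7 rose, all 7 had a positive change, and the median change was 0.65. Psma6 was 10.02, 10.15 and 9.90 in WT and 11.19, 10.79 and 11.25 in SRSF3HKO (change 1.06 ± 0.19, limma adjusted p = 0.0145). Psma7 was 9.70, 9.27 and 9.47 in WT and 10.51, 10.34 and 10.64 in SRSF3HKO (change 1.02 ± 0.19, limma adjusted p = 0.0164). In both genes every knockout array lay above every WT array, and replicate 2 was the lowest knockout array. Both rose about 2.0-fold, with 7 of 8 and 6 of 8 tested probe sets called. The highest and lowest probe sets of Psma6 were 5452583 (change 1.17) and 5607244 (0.67), and those of Psma7 were 5022211 (1.13) and 4631227 (0.38). In the lowest probe set of Psma6, SRSF3HKO replicate 2 lay below the WT arrays, and in that of Psma7 it lay within their range. Psma5 (0.78 ± 0.25) and Psma3 (0.65 ± 0.20) did not overlap between groups but missed the threshold (limma adjusted p = 0.0825 and 0.0711), and Psma1, Psma2 and Psma4 lay between 0.27 and 0.49 with overlapping groups. A further 16 probe sets shared by Psma5 and a pseudogene, not counted among the members, had a median change of 0.78 with 1 called higher.

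The constitutive beta subunits carry the proteolytic sites or build the inner rings. Of 7, Psmb6 and Psmb4 rose, all 7 had a positive change, and the median was 0.59. Psmb6, which carries the caspase-like site, was 10.44, 10.46 and 10.28 in WT and 11.34, 11.00 and 11.17 in SRSF3HKO (change 0.78 ± 0.18, limma adjusted p = 0.0282). Psmb4, a non-catalytic subunit, was 9.92, 9.95 and 9.87 in WT and 10.64, 10.37 and 10.81 in SRSF3HKO (change 0.69 ± 0.18, limma adjusted p = 0.0471). The groups of both genes stood apart, and Psmb4 lay nearest to the threshold of the 7 called genes. Psmb4 lost its call in 10 of 16 alternatives, among them quantile normalization (limma adjusted p = 0.0506), median centring (0.0738) and the Y-linked covariate (0.0814), with a change of 0.59 to 0.81 over all 16. The probe sets of Psmb6 spanned 0.55 (5120461) to 0.88 (5189731), and those of Psmb4 spanned 0.60 (4551754) to 0.81 (5100351). Psmb5, of the chymotrypsin-like site, was 9.23, 9.64 and 9.18 in WT and 10.36, 9.53 and 10.33 in SRSF3HKO (0.72 ± 0.27, limma adjusted p = 0.121), so replicate 2 alone overlapped the WT arrays, and without it the change was 1.00 (limma adjusted p = 0.0116). Psmb7, of the trypsin-like site, was 10.68, 10.34 and 10.57 in WT and 11.18, 10.80 and 11.38 in SRSF3HKO (0.59 ± 0.21, limma adjusted p = 0.1004). Psmb1, Psmb2 and Psmb3 had changes of 0.45 to 0.49.

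**Figure D4:**
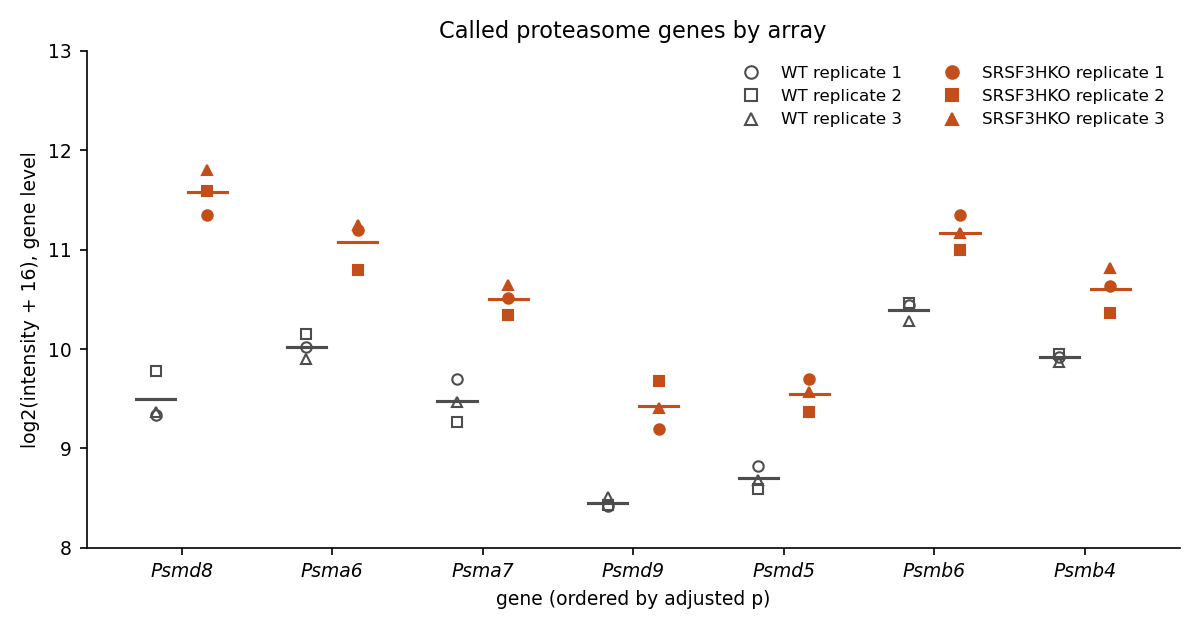
Gene level of the 7 called proteasome genes on each array as log2(intensity + 16), WT in open grey and SRSF3HKO in filled orange symbols, with bars for the group means and genes ordered by adjusted p. In each gene all 3 SRSF3HKO arrays lie above all 3 WT arrays, and Psmd8 has the widest gap, from 9.78 to 11.34.

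The immunoproteasome beta subunits Psmb8, Psmb9 and Psmb10, which replace Psmb5, Psmb6 and Psmb7 in cells exposed to interferon, had negative changes, and none was called by limma (0 of 3 also at an unadjusted p under 0.05). Psmb8 was 7.52, 7.57 and 7.62 in WT and 7.50, 5.73 and 7.02 in SRSF3HKO (change -0.82 ± 0.40, limma adjusted p = 0.222). Psmb9 was 8.22, 7.64 and 8.08 in WT and 8.27, 6.08 and 7.75 in SRSF3HKO (change -0.61 ± 0.50, limma adjusted p = 0.464). Psmb10 was 8.26, 8.58 and 8.56 in WT and 8.39, 7.41 and 8.35 in SRSF3HKO (change -0.42 ± 0.29, limma adjusted p = 0.382). Most of these differences came from replicate 2, in which the median difference from the WT mean was -1.84, against -0.07 and -0.23 in replicates 1 and 3. Without replicate 2 the changes were -0.31, 0.03 and -0.09. None of the 22 tested probe sets of these genes was called in either direction by limma, with 1 lower and 0 higher at an unadjusted p under 0.05. Psmb11, the thymus-restricted beta subunit, lay below the floor on all 6 arrays (4.33 to 4.71) and was not tested.

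The 6 ATPases of the 19S base, Psmc1 to Psmc6, which unfold substrates and open the gate, had changes of 0.39 to 0.59 with a median of 0.50. None was called by limma, and 3 were higher at an unadjusted p under 0.05, where 17.6% of all tested genes were. In 4 of them (Psmc1, Psmc2, Psmc4 and Psmc6) every knockout array lay above every WT array, as in 21.6% of all tested genes. Of their 85 tested probe sets, 8 rose, in Psmc4 (4), Psmc1 (3) and Psmc6 (1), where 4.73% of all tested probe sets were called higher.

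Of the 10 non-ATPase subunits of the 19S cap, Psmd8 rose and 9 were not called, and the median change was 0.45. Psmd12 (0.67 ± 0.19), the ubiquitin receptor Psmd4 (0.65 ± 0.19) and Psmd13 (0.62 ± 0.18) lay just beyond the threshold (limma adjusted p = 0.0530, 0.0619 and 0.0624), with no overlap between groups. Psmd13 had 6 of 17 probe sets called higher and Psmd4 had 3 of 12. Psmd14, the deubiquitinase of the lid, was 10.64 and 10.73 in SRSF3HKO replicates 1 and 3 and 8.85 in replicate 2, against 9.74, 10.05 and 10.05 in WT (0.12 ± 0.46, limma adjusted p = 0.892); without replicate 2 its change was 0.74 (limma adjusted p = 0.0222). Psmd2, a large scaffold subunit of the base with 26 tested probe sets, was 10.53, 10.35 and 10.33 in WT and 10.28, 10.60 and 10.31 in SRSF3HKO, so the groups overlapped and the means were nearly equal (SE 0.18, limma adjusted p = 0.998). Psmd3, Psmd6, Psmd7 and Psmd11 had changes of 0.16 to 0.49.

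The 3 chaperones that assemble the 19S base, Psmd5, Psmd9 and Psmd10, had a median change of 0.84, and 2 rose. Psmd9 was 8.42, 8.43 and 8.51 in WT and 9.19, 9.68 and 9.40 in SRSF3HKO (change 0.97 ± 0.20, limma adjusted p = 0.0200). Psmd5 was 8.82, 8.60 and 8.68 in WT and 9.70, 9.37 and 9.57 in SRSF3HKO (change 0.84 ± 0.19, limma adjusted p = 0.0263). The groups of both stood apart, and Psmd9 was highest in replicate 2, unlike most of the genes. The probe sets of Psmd9 spanned 0.61 (4528110) to 1.22 (4360259) and those of Psmd5 spanned 0.24 (5173583) to 1.11 (4324940). Psmd10, also known as gankyrin, was 8.20, 8.12 and 8.31 in WT and 9.34, 8.30 and 9.36 in SRSF3HKO (0.79 ± 0.30, limma adjusted p = 0.125). Its replicate 2 lay within the WT range, and without that array the change was 1.14 (limma adjusted p = 0.00525).

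None of the 3 chaperones of 20S assembly was called by limma, with 1 higher at an unadjusted p under 0.05. Psmg1, which pairs with Psmg2 to build the alpha ring, was 8.94, 8.88 and 8.91 in WT and 9.41, 9.18 and 9.74 in SRSF3HKO (0.53 ± 0.20, limma adjusted p = 0.123). Psmg2 was 8.29, 8.09 and 7.91 in WT and 8.53, 7.16 and 8.27 in SRSF3HKO (-0.11 ± 0.35, limma adjusted p = 0.868), and its change was 0.30 without replicate 2. Psmg3 was 6.57, 6.28 and 6.55 in WT and 7.52, 6.29 and 7.39 in SRSF3HKO (0.60 ± 0.32, limma adjusted p = 0.261), so replicate 2 lay among the WT arrays.

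The activators, which open the 20S core without the 19S cap, had changes of both signs and none was called by limma, with 1 higher and 1 lower at an unadjusted p under 0.05. Psme1, the alpha chain of PA28, was 10.35, 10.05 and 10.49 in WT and 9.78, 8.62 and 9.64 in SRSF3HKO. Its groups did not overlap, all 14 of its probe sets had a negative change (-1.13 to -0.61), and the gene changed by -0.96 ± 0.32 (limma adjusted p = 0.0866). Psme1 was called only with array weights (-0.80, limma adjusted p = 0.0422), among alternatives whose adjusted p ran to 0.234, and without replicate 2 the change was -0.59 (limma adjusted p = 0.0590). Psme2, the beta chain of PA28, was 8.52, 8.25 and 8.62 in WT and 8.99, 8.72 and 8.88 in SRSF3HKO (0.40 ± 0.19, limma adjusted p = 0.218). That value rests on 2 probe sets that differed, at 0.83 and -0.04, and the 10 tested probe sets shared by Psme2 and its copy Psme2b had a median change of 0.04, so the direction of Psme2 is uncertain. Psme3, of the nuclear activator PA28-gamma, was 9.15, 8.98 and 8.88 in WT and 9.53, 9.42 and 9.42 in SRSF3HKO (0.45 ± 0.18, limma adjusted p = 0.136). Psme4, of the activator PA200, was 9.50, 9.06 and 9.19 in WT and 8.44, 9.13 and 8.81 in SRSF3HKO (-0.45 ± 0.24, limma adjusted p = 0.245), and all 54 of its probe sets had a negative change. Psmf1, of the inhibitor PI31, was 9.21, 9.20 and 8.88 in WT and 9.98, 9.55 and 9.91 in SRSF3HKO (0.72 ± 0.20, limma adjusted p = 0.0563).

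**Figure D5:**
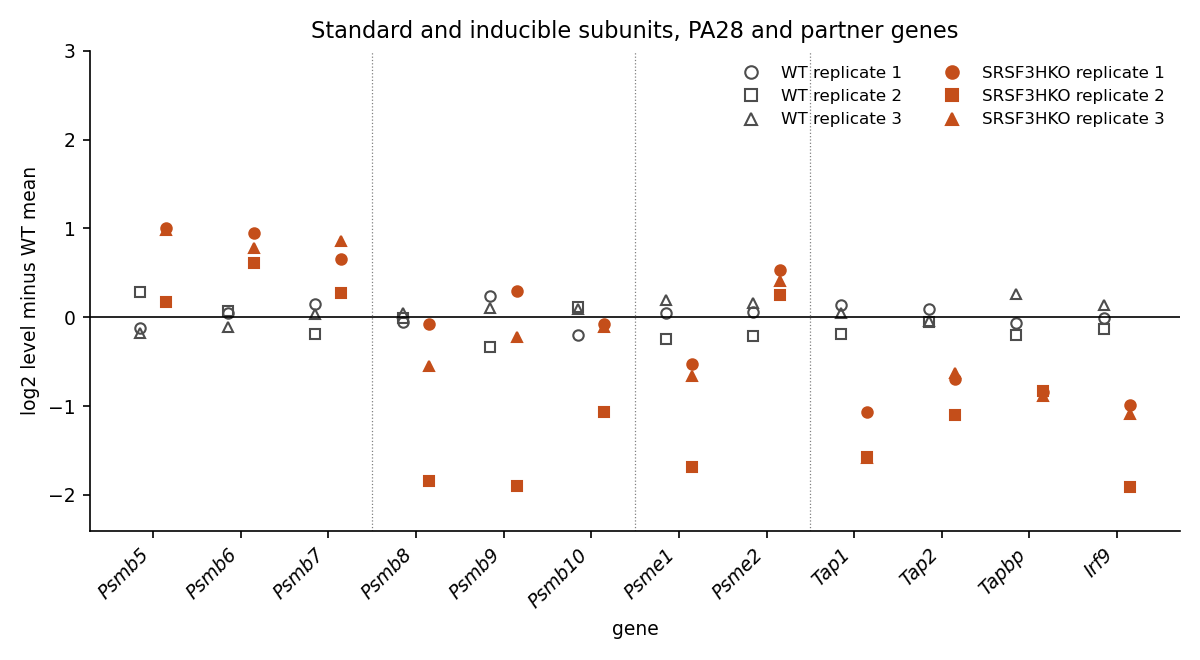
Difference from the WT mean, in log2 units, of the constitutive catalytic subunits, the immunoproteasome subunits, both PA28 chains and 4 genes of antigen presentation and interferon signalling, with 1 symbol per array (WT open grey, SRSF3HKO filled orange). All 3 knockout arrays lie below the WT arrays for Psmb8, Psme1, Tap1, Tap2, Tapbp and Irf9 but not for Psmb9 and Psmb10, and SRSF3HKO replicate 2 (squares) is the lowest knockout array of Psmb8, Psmb9, Psmb10, Psme1, Tap2 and Irf9.

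Genes outside the symbol rule that work with the proteasome were described from fixed lists. Of 17 tested cofactors and regulators, 1 rose and none was called lower by limma, where 6.85% and 5.03% of all tested genes were called higher and lower. At an unadjusted p under 0.05, 4 were higher and 1 was lower, and the median change was 0.00. The list also holds the 19S subunit genes Sem1 (0.76 ± 0.22) and Adrm1 (0.26 ± 0.25), neither of them called (limma adjusted p = 0.0595 and 0.532). The groups of Sem1 did not overlap, and those of Adrm1 did. The riser was Uchl5, a deubiquitinase of the 19S cap, at 8.19, 8.39 and 8.33 in WT and 9.25, 9.47 and 9.40 in SRSF3HKO (change 1.07 ± 0.18, limma adjusted p = 0.0107). Nfe2l1, the gene of NRF1, was 9.15, 9.10 and 9.27 in WT and 9.27, 9.09 and 8.56 in SRSF3HKO (-0.20 ± 0.23, limma adjusted p = 0.607). The arrays read RNA only, and the activity of the NRF1 protein was not tested. Nfe2l2, the gene of NRF2, had a change of 0.07 ± 0.39 and Pomp, a 20S maturation factor, one of -0.15 ± 0.31. Of 8 tested genes of ubiquitin handling and p97, a segregase that extracts substrates, the E3 ligase gene Stub1 rose from 8.71, 8.62 and 8.62 to 9.59, 9.38 and 9.61 (change 0.88 ± 0.18, limma adjusted p = 0.0200), and the median was 0.31. The array values of Uchl5 and Stub1 did not overlap between groups.

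In the list of antigen presentation by MHC class I, which uses the peptides made by the proteasome, 5 of 10 tested genes fell. All 10 had a negative change and the median was -0.76, and 5.03% of all tested genes were called lower. The class I genes B2m (-0.17 ± 0.20), H2-D1 (-0.21 ± 0.18) and H2-K1 (-1.62 ± 0.99) were not called, and their groups overlapped. Canx (-0.48) and Erap1 (-0.37) were not called either, though their groups did not overlap. Tap1, of the peptide transporter, was 7.95, 7.62 and 7.85 in WT and 6.74, 6.23 and 6.23 in SRSF3HKO (change -1.41 ± 0.22, limma adjusted p = 0.00808). Tap2 of the same transporter (-0.81), the loading factors Tapbp (-0.85) and Pdia3 (-0.71) and the chaperone Calr (-0.98) also fell (limma adjusted p = 0.0381, 0.0291, 0.0262 and 0.0439). All 3 knockout arrays of the 5 genes that fell lay below the WT arrays, as they did for 14% of all tested genes. The 5 were chosen by their call on these same arrays, which favours such a separation. The arrays of Psmb8 and Psme1, which were not called, were separated in the same way, and those of Psmb9 and Psmb10 were not. H2-K1 varied widely within both groups, at 11.61, 8.37 and 11.87 in WT and 8.22, 8.11 and 10.67 in SRSF3HKO. The cause of that spread was not tested. Of 6 tested genes of interferon-driven transcription, Irf9 (-1.33 ± 0.27, limma adjusted p = 0.0206) and Gbp2 (-1.03 ± 0.25, limma adjusted p = 0.0357) fell, and the median was -0.69. Each marker list of another cell type is given beside these values, as the log2 of its summed intensity.

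The lymphocyte list had 7.35 to 7.64 in WT and 7.92, 6.53 and 6.91 in SRSF3HKO replicates 1, 2 and 3, with 0 of 4 tested genes called by limma (0 also at an unadjusted p under 0.05) and 2 of 7 below the floor on every array. The macrophage list had 11.1 to 11.3 in WT and 13.82, 11.55 and 11.52 in SRSF3HKO. Of its 8 genes, 1 was called higher (Marco) and 4 were higher at an unadjusted p under 0.05 (Marco, Cd68, Cd163 and Vsig4). Over all tested genes these shares were 6.85% and 17.6%. Adgre1, Clec4f, Csf1r and Timd4 overlapped between groups. They lay above the WT mean in SRSF3HKO replicate 1 and below it in replicates 2 and 3. The neutrophil list had 5.79 to 6.51 in WT and 8.66, 7.03 and 6.38 in SRSF3HKO. Of its 3 tested genes, 0 were called by limma, and 1 of 4 lay below the floor on every array. At an unadjusted p under 0.05, 1 was higher, Retnlg. It lay below the floor of 5.35 on all WT arrays (4.56 to 4.79) and on SRSF3HKO replicate 3 (5.07). It passed the filter on its mean only through SRSF3HKO replicates 1 and 2 (7.25 and 6.32). All 3 immune lists were highest in SRSF3HKO replicate 1. Among the SRSF3HKO arrays, the endothelial, stellate cell, erythroid and cholangiocyte lists below were highest there too. The hepatocyte list was lowest there (15.57).

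The endothelial list had 11.15 to 11.70 in WT and 11.64, 10.27 and 11.17 in SRSF3HKO, with 1 of 6 genes called lower (Kdr) and 5 of 6 changes negative. The stellate cell list had 10.09 to 10.54 in WT and 10.24, 9.63 and 9.24 in SRSF3HKO, with 1 of 6 genes called lower (Col3a1) and 5 of 6 changes negative. The erythroid list had 13.39, 13.23 and 11.55 in WT and 13.26, 10.32 and 9.47 in SRSF3HKO, with 1 of 2 tested genes called lower (Alas2). The endothelial and lymphocyte lists, like the immunoproteasome genes, were lowest in SRSF3HKO replicate 2. So were the summed lists of interferon-driven transcription (8.53) and antigen presentation (13.83). The stellate cell and erythroid lists were lowest in SRSF3HKO replicate 3. Among all tested genes, 39.1% had replicate 2 as their lowest SRSF3HKO array. The cholangiocyte list had 8.96 to 9.47 in WT and 11.54, 10.10 and 9.71 in SRSF3HKO, with 0 of 5 tested genes called by limma and 2 higher at an unadjusted p under 0.05. Its brightest gene, Spp1, was 8.68, 8.34 and 8.25 in WT and 11.41, 9.30 and 9.25 in SRSF3HKO. Krt7, Krt19, Epcam and Sox9 overlapped between groups, and Cftr lay below the floor. The part of these cells in the values of the immunoproteasome and antigen presentation genes was not tested.

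Psmc3ip, which is no proteasome gene, lay near the floor (5.33 to 5.96) with a change of 0.29 ± 0.18 (limma adjusted p = 0.333), while its 3 probe sets above the probe set floor had changes of -0.46 to -0.25. Psmd1, Psma8 and Psmg4 were not analysed here.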

How the data were processed

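The data are 6 Affymetrix exon arrays of mouse liver RNA, 3 per genotype. The deposited values are linear intensities per probe set, for which the authors used PLIER and Affymetrix Expression Console on core exons, per the submitters' processing notes; versions and the background step are not given in the sources used here. Of 229581 probe sets, 208397 had 1 annotated gene, 3965 several and 17219 none, and only the first kind entered gene levels and exon usage. Intensities were taken as log2(value + 16), which understates changes of dim genes, and a gene level was the median over its probe sets. The detection floor was the 90th percentile of 1046 genes of olfactory, vomeronasal or taste receptors (gene level 5.35, single probe sets 5.63, in log2 units), and only features with a higher mean were tested.

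limma 3.58.1 (lmFit, eBayes with trend) in R 4.3.3 was fitted on all 11711 genes and 157764 probe sets above the floor, with Benjamini-Hochberg adjustment over all of them and a threshold of 0.05. diffSplice was run on genes with at least 3 tested probe sets. Tests were tried on simulated data. A list's summed level is the log2 of its summed intensities. Alternatives were the pseudocount, scaling, gene summary, filter, trend, array weights, a Y-linked covariate, and leaving out each array; 2 splicing indices were added after seeing the data. The members, lists and motifs were chosen with earlier results of these data known. By rule, any member could be named, and from the partner lists Nfe2l1, Nfe2l2, Ddi2 (not analysed here), Pomp and up to 6 called genes per list with the lowest adjusted p. Psma3 probe set 5370051 falls outside this rule. So do B2m, Canx, Erap1, H2-D1, H2-K1, Apoa1, Serpina1a, Ttr, Spp1, Krt7, Krt19, Epcam, Sox9 and Cftr. Retnlg, Cd68, Cd163, Vsig4, Adgre1, Clec4f, Csf1r, Timd4, Sem1 and Adrm1 fall outside the rule too. Groups are those of the genotype label, and replicates are numbered in sample order. Promoter windows are RefSeq's on GRCm38.p6; gene positions and probe set positions were not used here. Further software was the R package data.table (version 1.17.8) and, for promoters and plots, Python 3.11.15 with pandas 2.3.3 and matplotlib 3.10.9.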

Additional observations from a re-analysis of the deposited data

How the results depend on the processing

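Psmd8 and the lower usage of its probe set 4563073 kept their calls under all 16 alternatives of the processing. For usage, the alternatives of the gene summary and the trend repeat the same test and could not change the call. The count of 7 proteasome genes called higher stayed at 6 to 8 with other pseudocounts, scalings, gene summaries, filters or no trend. Psmb4 was the gene lost with quantile normalization, median centring, bright probe sets only and no filter, and Psmb6 with the mean over probe sets. The count became 21 with array weights (10.8% of all tested genes called higher) and 3 with the Y-linked covariate (2.69%), and ran from 1 to 26 when 1 array was left out (0.888% to 11.9%). The count called lower was 1 with array weights (Psme1) and 0 otherwise, also without any 1 array. The median change ran from 0.41 to 0.66 without 1 array. Of probe sets, 62 were called higher; the count was 33 without trend, 166 with array weights, 21 with the Y-linked covariate and 10 to 193 without 1 array. Probe sets called lower numbered 1 with quantile normalization, 2 with median centring, 12 with array weights and 0 to 7 without 1 array. Genes called for exon usage numbered 4 with array weights, 2 with the Y-linked covariate, 0 with the splicing index against the gene median and 1 to 5 without 1 array. The cause of these shifts was not tested.

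Directions turned only for genes with no call. Psmd2 became 0.0037 with quantile normalization, 0.084 with the mean over probe sets, 0.0039 with bright probe sets only, and ran from -0.10 to 0.062 without 1 array. Psmd14 ran from -0.21 to 0.74 without 1 array, the highest without SRSF3HKO replicate 2. Psmg2 became 0.082 with array weights, 0.0063 with the Y-linked covariate, and ran from -0.38 to 0.30 without 1 array. Psmb9 ran from -1.06 to 0.033 without 1 array, positive only without SRSF3HKO replicate 2, and Psmc3ip became -0.27 with bright probe sets only. No paired analysis was possible because replicates are numbered in sample order, which pairs nothing. Genes near the floor, such as Psmc3ip, are limited by their low signal over background.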
